A study of Mus musculus with 6 samples.

Results

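The solute carriers are the large group of membrane transporters whose gene symbols start with Slc and a family number. Rows of the deposited count table with such a symbol were selected on their level in the control lenses, a mean CPM (a gene's count scaled by its library's total) of at least 5 over the 3 control libraries, which 194 of the 216 Slc rows reached, out of 13024 genes in the table. The 194 members fall into 43 families, and 5 of them are no transporters (Slc2a4rg-ps, Slc4a1ap, Slc7a6os, Slc9a3r1 and Slc9a3r2). Because the control level chose the members, counts over them are given as descriptions beside the same counts over all genes.

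RNA-Seq was done on lenses of E14.5 mouse embryos of a mixed C57BL/6 and FVB background, with 3 control pools and 3 pools labelled Gata3 CKO, and each pool held 10 lenses from 5 embryos. The CKO embryos were Gata3 f/f and carried Pax6-Cre, in which an ocular enhancer and the P0 promoter of Pax6 drive Cre in precursors of the lens and cornea and in scattered retinal cells, so that exon 4 of Gata3 is deleted there. Control embryos carried no Cre. Their Gata3 alleles are given as wild type in the labels, as f/wt in the study's results and as f/f in its methods. The libraries held 15157230 to 18811104 counts each.

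The lens has no blood vessels, and its fibre cells lose their organelles as they mature, so that glucose, amino acids, inositol, ascorbate and ions reach the inner cells only through transporters and gap junctions. Facilitated glucose carriers, exchangers of large neutral amino acids, the cystine carrier that feeds glutathione synthesis, monocarboxylate carriers that remove lactate, and cotransporters that set cell volume are the families best known in this tissue. Other Slc genes work inside the cell, in the inner mitochondrial membrane, the Golgi or the lysosome, and a few mark other cell types, such as the anion exchanger Slc4a1 of red cells or the vesicular glutamate transporter Slc17a6 of neurons.

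Gata3 itself had 202, 386 and 156 counts in control, in the order of the replicates, and 910, 1064 and 894 in the libraries labelled CKO. The whole gene was thus counted more often where its loss is named, and CKO below stands for the libraries labelled so. One count is deposited for each gene, so that the deleted exon cannot be seen on its own and this count does not test the label. The paper states that its RNA-Seq showed the excision of this exon in the mutant lenses. It also reports that qPCR across this exon and the next found Gata3 strongly reduced in embryonic mutant lenses. Both of these measures run the way the labels say. Markers of the lens were present in every library, with Cryaa the most abundant of the 16 of 16 crystallins found.

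The libraries differed in what other tissue they held. The summed level of the crystallins was 93273, 189392 and 64181 CPM in control replicates 1 to 3 and 71414, 57027 and 52088 CPM in the CKO libraries, where CPM from here on is scaled by edgeR's TMM factors. Control replicate 2 thus stood above all others in crystallins, and it was also the highest in the sum over 6 of 6 lens epithelium genes. The epithelium genes, led by Pax6, summed to 1315, 1524 and 1179 CPM in control and 1197, 1217 and 1215 CPM in CKO. Control replicate 2 held the lowest level of the 14 of 14 retina genes, whose sum was 2834, 1592 and 4040.5 CPM in control and 3044, 2666 and 3563 CPM in CKO, with Fgf15 the most abundant. Control replicate 1 and CKO replicate 2 held more mesenchyme than the rest, with sums over 12 of 13 genes of 2433, 713 and 339 CPM in control and 379, 4256 and 639 CPM in CKO, and Col1a2 the most abundant. In bulk tissue, fewer cells of a type and less RNA in each cell cannot be told apart.

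Slc members took 1.03%, 1.02% and 1.03% of all counts in control replicates 1 to 3, and 1.07% in each of the CKO libraries. These shares did not overlap between the groups. With crystallin counts taken out of the totals, the shares were 1.14%, 1.22% and 1.10% in control and 1.15%, 1.14% and 1.13% in CKO, and they overlapped.

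Levels were compared between genes per kilobase of exon. Slc2a1, the facilitated glucose carrier GLUT1 (chr4:119108711-119137983), was the highest member in control lenses at 228 ± 28.1 CPM per kb (SD, n = 3), and it was at 280.5 ± 22.8 CPM per kb (SD, n = 3) in CKO. Next in control came the mitochondrial ADP/ATP carriers Slc25a4, at 170.1 ± 21.4 CPM per kb, and Slc25a5, at 95.9 ± 20.9 CPM per kb. Slc25a5 has a named pseudogene copy in the annotation, so part of its count is uncertain. Slc7a5 and Slc3a2, the light and heavy chains of one exchanger of large neutral amino acids, stood at 95.3 ± 45.4 and 70.5 ± 26.9 CPM per kb. The zinc carrier Slc39a7 of the endoplasmic reticulum and Golgi, the mitochondrial phosphate carrier Slc25a3 and the sodium-coupled neutral amino acid carrier Slc38a2 lay close together at 63.0, 61.7 and 61.6 CPM per kb, and their order is within the spread between pools. The zinc importer Slc39a1 and the mitochondrial oxoglutarate carrier Slc25a11 followed at 37.7 and 36.8 CPM per kb, again within the spread. The median member was at 5.81 CPM per kb, so a glucose carrier, a neutral amino acid system and carriers of the mitochondrial membrane led the transporter mRNA of these lenses.

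**Figure D1:**
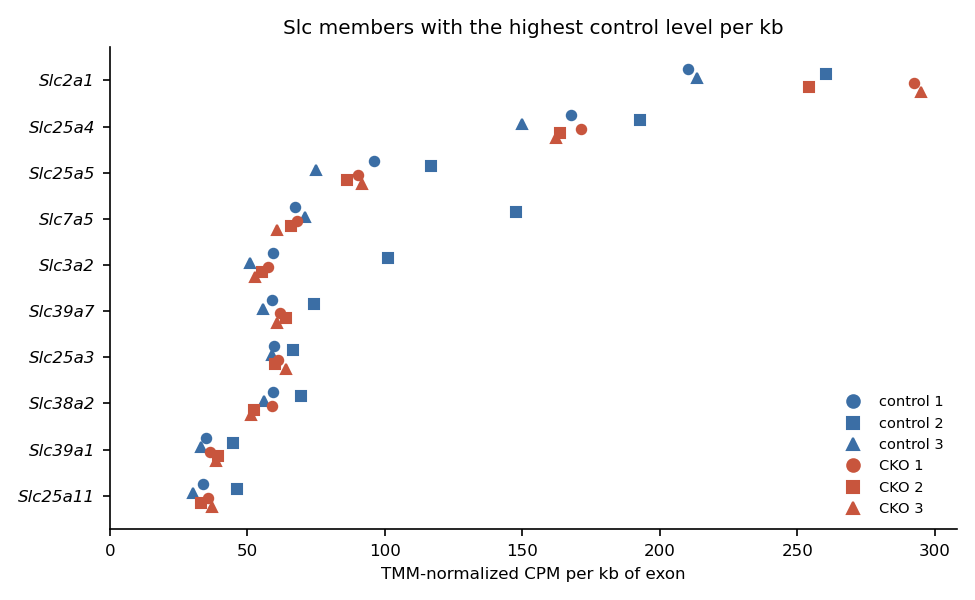
Level of the 10 Slc members with the highest control mean, in TMM-normalized CPM per kb of exon (x axis), one point for each library (blue control, red CKO). Slc2a1 leads in every library, and the control replicate 2 points of Slc7a5 and Slc3a2 stand far to the right of the other 5.

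All 194 members passed the filter of at least 10 counts in at least 3 libraries. In edgeR's quasi-likelihood test, 0 members had a Benjamini-Hochberg adjusted p-value under 0.05, as was so for 0 of the 12879 genes tested (0.0%). The lowest adjusted p over all genes was 0.0664 in this test. Even the crystallin Crygf, with a log2 fold change of -3.63 and groups without overlap, had an adjusted p of 0.486 in it. The absence of calls therefore does not show an absence of change. At an unadjusted p-value under 0.05, 6 members were lower in CKO (3.09%, against 2.24% of all genes) and 5 were higher (2.58%, against 1.3% of all genes). DESeq2's Wald test called 1 member, Slc46a3, among 85 calls over all genes (0.661%). It made too many false calls on simulated counts, but these used edgeR's dispersions and held no tissue differences between pools. The simulation therefore does not judge the call of Slc46a3. The likelihood ratio test of edgeR called the same member among 78 genes, and limma voom called 0 members. The median log2 fold change was -0.02 over the members and 0.00 over all genes, with 104 members below 0 and 90 above, and the member median was 0.08 with library sizes without TMM. In 168 of the 194 members the log2 fold change lay within 0.25 of 0, and in 1 it was beyond 1.

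For 10 members all CKO values lay below all control values (5.15%, against 4.69% of all genes), and for 14 all lay above (7.22%, against 3.67% of all genes). With CPM on total counts, without TMM, 4 members were lower (2.06%, against 2.27% of all genes) and 24 higher (12.4%, against 10.9% of all genes), and that scaling moved the median of all genes up by 0.10. The balance of lower and higher members is therefore relative to the scaling. The numbers at an unadjusted p under 0.05 also rested on single libraries. Members lower in CKO numbered 18 without control replicate 3 (9.28%, against 5.98% of all genes), and 3 without control replicate 1 or CKO replicate 1 (1.55%, against 1.47% and 1.57% of all genes). They numbered 2 without CKO replicate 2 or 3 (1.03%, against 2.05% and 1.15% of all genes). Higher members numbered 8 without control replicate 2 or 3 (4.12%, against 3.80% and 3.62% of all genes) and 1 without CKO replicate 1 (0.515%, against 0.940% of all genes). Without both mesenchyme-rich pools, 1 was lower and 1 higher (0.515% each, against 0.905% and 0.445% of all genes).

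**Figure D2:**
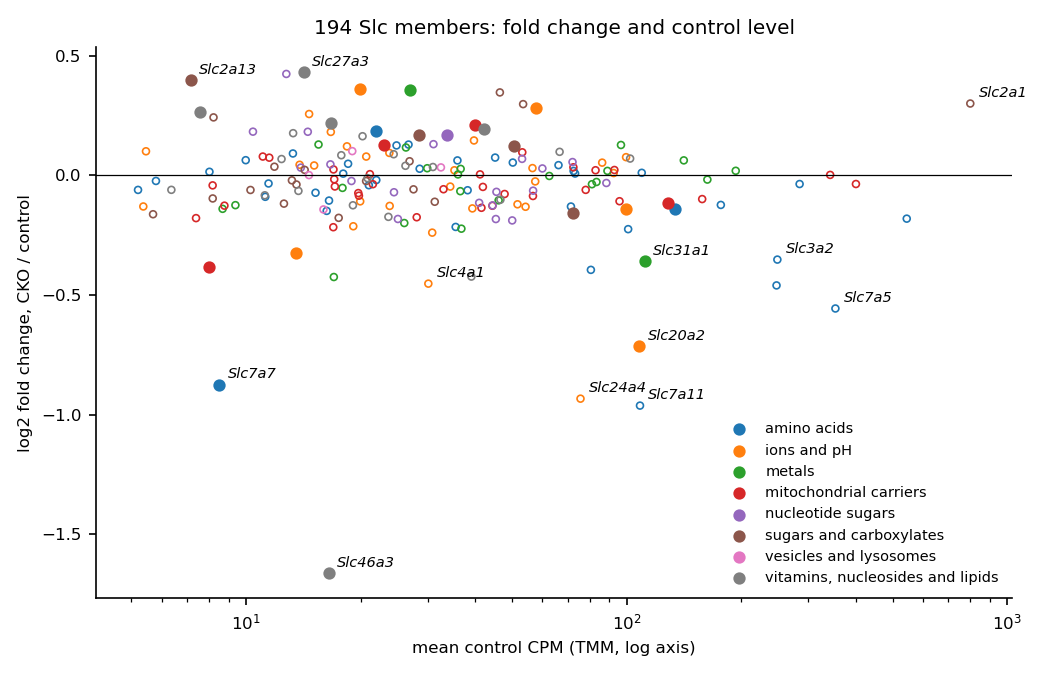
Log2 fold change of CKO over control (y axis) against mean control CPM on a log axis (x axis) for the 194 Slc members, coloured by role, with filled points where the groups do not overlap. Slc46a3 lies apart at -1.66, and most members lie within 0.25 of 0.

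Slc46a3, a lysosomal membrane protein of the proton-coupled folate carrier family, had the largest difference of the 194 members and lies at chr5:147878437-147894815 of GRCm38. Its level was 13.4, 26.5 and 9.50 CPM in control replicates 1 to 3 and 6.35, 5.59 and 3.64 CPM in CKO, from counts of 70 to 376. Every CKO pool was below every control pool, and control replicate 2 was the highest. The log2 fold change was -1.66 (standard error 0.42, 95% confidence interval -2.68 to -0.65), with an adjusted p of 0.802 in edgeR's quasi-likelihood test with Benjamini-Hochberg adjustment. DESeq2's adjusted p was 0.0145 and that of edgeR's likelihood ratio test 0.0350, while over all other alternatives it ran from 0.295 to 0.99999. Without control replicate 2 the log2 fold change was -1.13, and with any other library left out it was -1.46 to -1.94. Within control, the pool with most Slc46a3 was also the one with most crystallin, while CKO replicate 1 held more crystallin and less Slc46a3 than control replicate 3. The crystallins were lower in CKO for 15 of 16 genes, 10 of them without overlap, and their median log2 fold change was -1.19, or -1.04 without TMM, -0.63 without control replicate 2 and -1.46 without control replicate 3. The cause of the Slc46a3 difference was not tested.

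Because Gata3 encodes a GATA factor, the 250 bases before the RefSeq start (GRCm38.p6) of Slc46a3 are given, at chr5:147894816-147895065 on the reverse strand, written 5′ to 3′ on the gene's strand.
Slc46a3: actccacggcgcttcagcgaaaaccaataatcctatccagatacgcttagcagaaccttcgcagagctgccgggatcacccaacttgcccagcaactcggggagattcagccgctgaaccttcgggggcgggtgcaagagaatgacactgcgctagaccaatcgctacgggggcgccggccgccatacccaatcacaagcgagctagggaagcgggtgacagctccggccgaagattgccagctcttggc
The GATA word AGATAA was searched on both strands, and so was AGATAG, which differs from it in the last base. The search also took TGATAA, which differs in the first base, and TGATAG, which differs in both. They have 0 matches in this window, so it holds no capitals. Such a window was given for 150 of the 194 members, and 32 of them (21.3%) held at least 1 of the words, as did 29.7% of the 27025 genes with a window. Of the 28 members whose fold changes were recomputed under alternatives, Slc16a1, Slc30a10, Slc7a7 and Slc8a1 held one, and the others with a window held none. No window was given for Slc20a2, Slc25a26, Slc25a51, Slc26a2, Slc52a2 and Slc7a5. A match or its absence describes these letters only, and the words were chosen after the levels and the windows had been seen.

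Among the 22 members that carry vitamins, nucleosides and lipids, 1 was lower without overlap and 4 were higher, beside 4.69% and 3.67% of all genes. Slc27a3, a fatty acid transport protein with acyl-CoA synthetase activity, was at 15.5, 14.52 and 12.6 CPM in control and 18.2, 20.04 and 19.2 CPM in CKO. This was the highest log2 fold change of all members, 0.43 (standard error 0.12, unadjusted p = 0.0101 in edgeR's genome-wide fit), and with each library left out it stayed between 0.35 and 0.51. Its relative Slc27a4 had 37.6, 42.6 and 46.2 CPM in control and 46.4, 48.2 and 49.95 CPM in CKO, and its lowest CKO pool was barely above its highest control pool. The riboflavin carrier Slc52a2 (16.5 to 16.9 CPM in control, 18.4 to 21.5 CPM in CKO) and the equilibrative nucleoside carrier Slc29a2 (7.40 to 7.86 CPM, and 8.65 to 9.94 CPM) were also separate. Their log2 fold changes were 0.22 and 0.27, with standard errors of 0.11 and 0.15, and that of Slc52a2 was 0.14 without CKO replicate 1. The ascorbate carrier Slc23a2 and the acetyl-CoA carrier Slc33a1 overlapped between groups.

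The 39 amino acid members had a median log2 fold change of -0.04 and a range of -0.96 to 0.18. The 10 members of family 7 summed to 906, 1524 and 789 CPM in control and 871, 804 and 735 CPM in CKO, and control replicate 2 stood apart. Slc7a7, a light chain that exchanges cationic against neutral amino acids, had 9.31, 10.4 and 5.81 CPM in control and 4.86, 4.93 and 4.11 CPM in CKO. Its groups did not overlap, and the log2 fold change was -0.87 (standard error 0.26, unadjusted p = 0.0119 in edgeR's genome-wide fit). Slc7a6, another light chain of that exchange, was at 125 to 147 CPM in control and 119 to 124 CPM in CKO, with a log2 fold change of -0.14 that was -0.06 without control replicate 2 and -0.03 without TMM. Its groups were separate by a narrow gap.

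Slc7a5 was at 249.4, 548 and 263 CPM in control and 252, 244 and 225 CPM in CKO. Slc3a2, its heavy chain, was at 209.9, 357 and 179 CPM in control and 203, 195 and 186 CPM in CKO. Slc7a11, the cystine and glutamate exchanger that pairs with the same heavy chain, was at 87.5, 178 and 59.7 CPM in control and 70.3, 54.7 and 41.8 CPM in CKO. In all 3 genes control replicate 2 was far above the other 5 libraries, which overlapped between groups. The log2 fold changes were -0.56, -0.35 and -0.96 (standard errors 0.30, 0.25 and 0.41), and without control replicate 2 they were -0.08, 0.01 and -0.40. The direction of Slc3a2 was therefore that of one pool. Slc7a2, a cationic amino acid carrier that was named after its values were seen, was also highest in control replicate 2, at 207, 372 and 164 CPM in control and 213, 169 and 158 CPM in CKO. The crystallin sums were highest in the same pool, and their part in these differences was not tested.

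Slc7a11 and Slc3a2 had the same order of pools within each group. The crystallin sums, Slc46a3, Slc7a2, Slc20a2, Slc24a4 and Gss had this order too, so it is not particular to the pair. The promoter windows of Slc7a11 and Slc3a2 are shown because amino acid shortage is known to raise Slc7a11 through a short element near its start. The windows lie at chr3:50443614-50443863 and chr19:8713898-8714147 of GRCm38.p6, both on the reverse strand, and capitals mark the words TGATGCAA and TGATGAAA on either strand.
Slc7a11: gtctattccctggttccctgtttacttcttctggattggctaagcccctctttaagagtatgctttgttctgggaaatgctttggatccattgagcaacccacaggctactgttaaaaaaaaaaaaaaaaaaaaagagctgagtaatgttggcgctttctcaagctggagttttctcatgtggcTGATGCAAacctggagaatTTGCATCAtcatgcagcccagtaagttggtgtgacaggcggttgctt
Slc3a2: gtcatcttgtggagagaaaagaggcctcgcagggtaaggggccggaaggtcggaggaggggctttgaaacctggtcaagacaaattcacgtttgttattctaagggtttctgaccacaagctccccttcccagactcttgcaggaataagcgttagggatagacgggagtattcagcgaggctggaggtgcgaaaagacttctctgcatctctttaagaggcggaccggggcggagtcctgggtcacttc
The Slc7a11 window held 2 matches, one on each strand, and the Slc3a2 window 0. Of the 150 members with a window, 3 held a match (Slc7a11, Slc7a7 and Slc50a1), which is 2.0%, beside 1.88% of all genes with a window. These words, too, were chosen with levels and windows known.

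The other amino acid carriers known from the lens had overlapping groups. Slc38a2 was at 523, 613 and 496 CPM in control and 522, 464 and 452 CPM in CKO, with a log2 fold change of -0.18 (standard error 0.11) that was -0.08 without control replicate 2 and -0.07 without TMM. The neutral amino acid carriers Slc1a4 and Slc1a5, the taurine carrier Slc6a6, the creatine carrier Slc6a8 and the glycine carrier Slc6a9 had log2 fold changes from -0.06 to 0.07, and their groups overlapped. The oligopeptide and histidine carrier Slc15a4 of the lysosome was separate and higher, at 19.1, 23.9 and 22.96 CPM in control and 24.96, 24.2 and 25.9 CPM in CKO.

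Among the 31 members of the ion and pH families, 3 were lower without overlap and 2 were higher, beside the same 4.69% and 3.67% of all genes. Slc20a2, a sodium-phosphate carrier, was at 97.4, 150.2 and 75.7 CPM in control and 67.9, 66.3 and 62.9 CPM in CKO. Control replicate 2 was again the highest, and the log2 fold change of -0.71 (standard error 0.24, unadjusted p = 0.0217 in edgeR's genome-wide fit) was -0.39 without it. Its relative Slc20a1 was at 104, 95.2 and 99.8 CPM in control and 94.6, 85.1 and 91.4 CPM in CKO, which gave -0.14 on the log2 scale, or -0.04 without TMM. The sulphate carrier Slc26a2 had 14.1, 12.7 and 13.96 CPM in control and 11.2, 11.3 and 9.99 CPM in CKO, with close pools and a log2 fold change of -0.32 (standard error 0.13). Slc24a4, a potassium-dependent sodium-calcium exchanger named after its values were seen, was at 60.1, 122 and 44.6 CPM in control and 46.9, 39.3 and 32.5 CPM in CKO. Its groups overlapped, and the log2 fold change of -0.93 was -0.39 without control replicate 2.

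Higher in the same class were Slc8a1, the sodium-calcium exchanger NCX1, and Slc12a9, of the cation-chloride cotransporter family. Slc8a1 was at 59.2, 54.8 and 59.8 CPM in control and 77.0, 68.9 and 65.4 CPM in CKO, which gave 0.28 on the log2 scale (standard error 0.09, unadjusted p = 0.0167 in edgeR's genome-wide fit). Slc12a9 was at 21.0, 19.6 and 19.2 CPM in control and 26.4, 28.3 and 22.01 CPM in CKO, which gave 0.36 on the log2 scale (standard error 0.12). In both, the control pools lay close together and the CKO pools spread wider above them. The volume-regulating cotransporters Slc12a2 and Slc12a4 and the bicarbonate carriers Slc4a2 and Slc4a7 overlapped between groups, with log2 fold changes from 0.01 to 0.12.

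The 23 metal carriers had a median log2 fold change of -0.02. Slc31a1, the copper importer CTR1, was at 110.5, 132 and 91.4 CPM in control and 87.9, 85.8 and 86.7 CPM in CKO. Its CKO pools lay close together while its control pools spread, and the log2 fold change of -0.36 (standard error 0.13) was -0.21 without control replicate 2. Slc30a10, a manganese exporter of the zinc efflux family, was at 28.2, 26.99 and 25.5 CPM in control and 39.1, 33.1 and 31.01 CPM in CKO. It was separate and higher, with a log2 fold change of 0.35 (standard error 0.11, unadjusted p = 0.0166 in edgeR's genome-wide fit). The zinc exporter Slc30a1 and the zinc and iron importer Slc39a14 overlapped between groups.

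**Figure D3:**
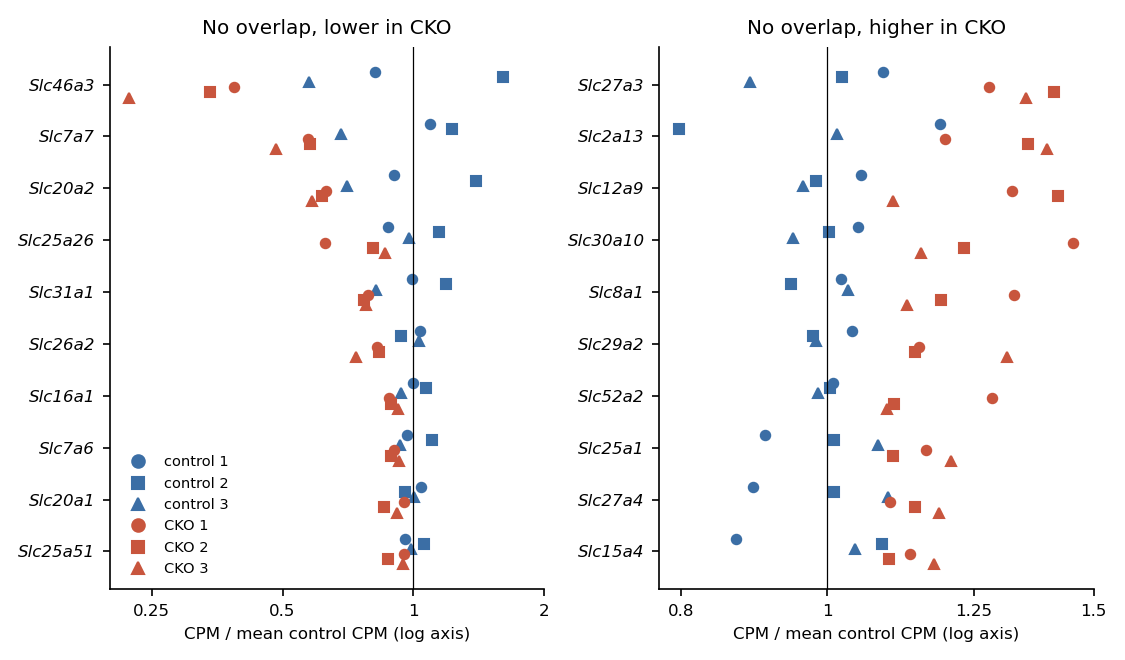
CPM of each library divided by the mean of the control libraries (log x axis) for the 10 lowest and 10 highest fold changes among the Slc members whose groups do not overlap. Slc46a3 shows the widest gap, and control replicate 2 (blue square) is the highest control in 8 of the 10 lower members.

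The sugar and carboxylate families had 21 members by family number, with Slc2a4rg-ps among them. Of the counts of all Slc members, Slc2a1 held 7.13%, 7.79% and 7.52% in control replicates 1 to 3 and 9.76%, 8.71% and 10.2% in CKO. Its level was 737, 913 and 748 CPM in control and 1026, 891 and 1034 CPM in CKO. CKO replicate 2 lay below control replicate 2, so the groups overlapped, and the log2 fold change was 0.30 (standard error 0.12, unadjusted p = 0.0445 in edgeR's genome-wide fit). Without control replicate 2 it was 0.42, and the unadjusted p was above 0.05 without control replicate 1 or 3 and without CKO replicate 1 or 3. The inositol carrier Slc2a13 was at 8.49, 5.71 and 7.26 CPM in control and 8.56, 9.71 and 9.99 CPM in CKO, and its lowest CKO pool was barely above its highest control pool. The sodium-coupled inositol carrier Slc5a3 was also separate and higher, at 26.1 to 30.1 CPM in control and 30.4 to 33.8 CPM in CKO. The neuronal glucose carrier Slc2a3 overlapped.

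Of the monocarboxylate carrier family, the lactate carrier Slc16a1 was at 72.04, 77.0 and 67.5 CPM in control and 63.3, 64.0 and 66.5 CPM in CKO, separate and lower with a log2 fold change of -0.16 that was -0.10 without control replicate 2 and -0.05 without TMM. Slc16a3, which also carries lactate, was at 42.5, 45.3 and 51.6 CPM in control and 58.5, 38.2 and 80.4 CPM in CKO, and Slc16a12, which carries creatine, was at 48.8, 74.98 and 36.5 CPM in control and 83.3, 56.9 and 56.7 CPM in CKO. Both overlapped between groups, and their log2 fold changes of 0.35 and 0.30 (standard errors 0.26 and 0.29) moved with single pools. That of Slc16a3 was 0.06 without CKO replicate 3 and 0.58 without CKO replicate 2. For Slc16a12 it was 0.08 without control replicate 3, 0.09 without CKO replicate 1 and 0.63 without control replicate 2.

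The 34 mitochondrial carriers had a median log2 fold change of -0.05, which was 0.02 without control replicate 2. The S-adenosylmethionine carrier Slc25a26 was at 6.97, 9.16 and 7.82 CPM in control and 4.99, 6.46 and 6.87 CPM in CKO, and the nicotinamide dinucleotide carrier Slc25a51 was at 123, 136 and 127 CPM in control and 122, 112 and 122 CPM in CKO. Both were separate and lower, at -0.38 and -0.11, by narrow gaps, and that of Slc25a51 was -0.06 without control replicate 2 and -0.01 without TMM. The citrate carrier Slc25a1 was separate and higher, at 36.4, 40.4 and 43.3 CPM in control and 46.6, 44.2 and 48.3 CPM in CKO. The abundant Slc25a4, Slc25a5, Slc25a3 and Slc25a11 overlapped, at log2 fold changes of -0.10 to 0.00. The 20 nucleotide sugar carriers had a median of 0.00, and the 4 carriers of vesicles and lysosomes 0.02, which was -0.22 without control replicate 2 and 0.32 without control replicate 3. Leaving out single libraries moved the median across 0 in every role except amino acids and the role of vitamins, nucleosides and lipids. With library sizes without TMM the median was above 0 in each role, from 0.06 for amino acids to 0.16 for vitamins, nucleosides and lipids. The remaining members with separate groups, all higher and named after their values were seen, were Slc25a25, Slc35e3 and Slc37a3.

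**Figure D4:**
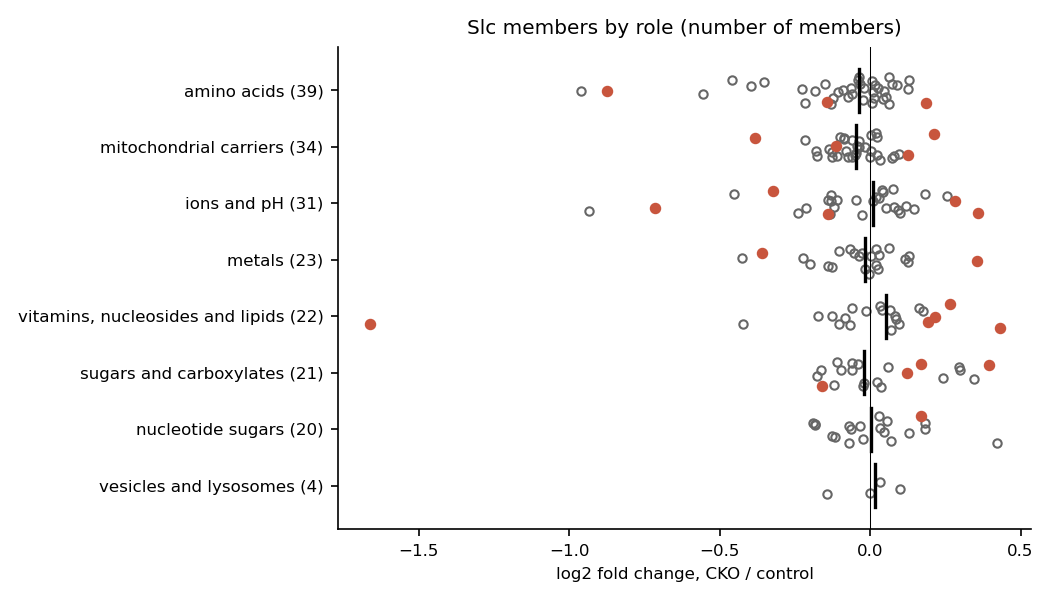
Log2 fold change of CKO over control (x axis) for each of the 194 Slc members by role, with vertical bars at the medians and red points where the groups do not overlap. The medians lie between -0.05 and 0.05 with TMM and above 0 without it, and Slc46a3 is the far left point.

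Some members followed the markers of other tissue across pools, and Slc17a6, Slc24a5, Slc4a1 and Slc1a6 were among those with the largest SD of log2 CPM over the control pools. Slc17a6, of glutamatergic neurons, was at 20.3, 6.55 and 30.2 CPM in control and 21.98, 18.003 and 21.4 CPM in CKO. The glutamate carrier Slc1a6 was at 6.78, 2.47 and 8.15 CPM in control and 5.19, 5.95 and 6.04 CPM in CKO. In both the lowest library was control replicate 2 and the highest control replicate 3, as in the retina sums. Their part in the spread was not tested.

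Slc24a5, a potassium-dependent exchanger of pigment cells, was at 10.6, 2.47 and 3.07 CPM in control and 1.88, 11.1 and 1.67 CPM in CKO. The bicarbonate carrier Slc4a5, named after its values were seen, was at 33.5, 15.2 and 11.1 CPM in control and 11.5, 29.95 and 13.9 CPM in CKO, and Slc12a4 was at 23.9, 18.2 and 13.2 CPM in control and 14.52, 30.5 and 14.9 CPM in CKO. All were highest in control replicate 1 and CKO replicate 2, like the mesenchyme sums and like the 9 of 10 pigment genes found, whose sums were 535, 245 and 152 CPM in control and 168, 528 and 160.2 CPM in CKO, with Trpm1 the most abundant. Of the exon bases of Slc24a5, 39.5% lie under exons of Myef2 on the opposite strand, so its count is uncertain, as are those of Slc33a1 (32.02%) and Slc6a9 (30.2%), which also lie under opposite-strand exons.

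Slc4a1, the red cell anion exchanger, was at 21.99, 53.5 and 14.9 CPM in control and 33.3, 17.4 and 15.3 CPM in CKO, and Slc25a37, the mitochondrial iron carrier of red cells, was at 48.7, 59.1 and 35.6 CPM in control and 54.5, 45.2 and 36.1 CPM in CKO. The 8 of 13 blood genes found summed to 536, 1276 and 349 CPM in control and 285, 413 and 403 CPM in CKO, led by Hbb-y, while Hba-a2, Hbb-bt and Hbb-bs were at 0 in all 6 libraries. Slc4a1 and the blood sum were both highest in control replicate 2, but Slc4a1 was next in CKO replicate 1, where the blood sum was lowest. Genes of vessels (11 of 11, led by Kdr) summed to 405, 415 and 312 CPM in control and 277, 361 and 281 CPM in CKO. Macrophage genes (10 of 10, led by Csf1r) summed to 127, 166 and 88.1 CPM in control and 78.3, 104 and 81.9 CPM in CKO. Surface ectoderm genes (8 of 8, led by Krt5) summed to 118, 111 and 50.5 CPM in control and 70.02, 175 and 83.6 CPM in CKO. The sums of all 3 lists overlapped between groups. Directions within the lists differed and rested in part on single pools. In CKO, 14 of 14 retina genes were higher, but 13 of 14 were lower without control replicate 2, and 10 of 12 mesenchyme genes were higher, but 12 of 12 were lower without CKO replicate 2. Of the lens epithelium genes, 5 of 6 were lower, but 3 without TMM and 2 without control replicate 2. By contrast, 10 of 11 vessel genes and 10 of 10 macrophage genes were lower in CKO, also without TMM, with medians of -0.39 and -0.51. With single libraries left out, the vessel median ran from -0.23 without control replicate 2 to -0.77 without CKO replicate 2. That of the macrophage genes ran from -0.25 without control replicate 2 to -0.72 without control replicate 3.

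**Figure D5:**
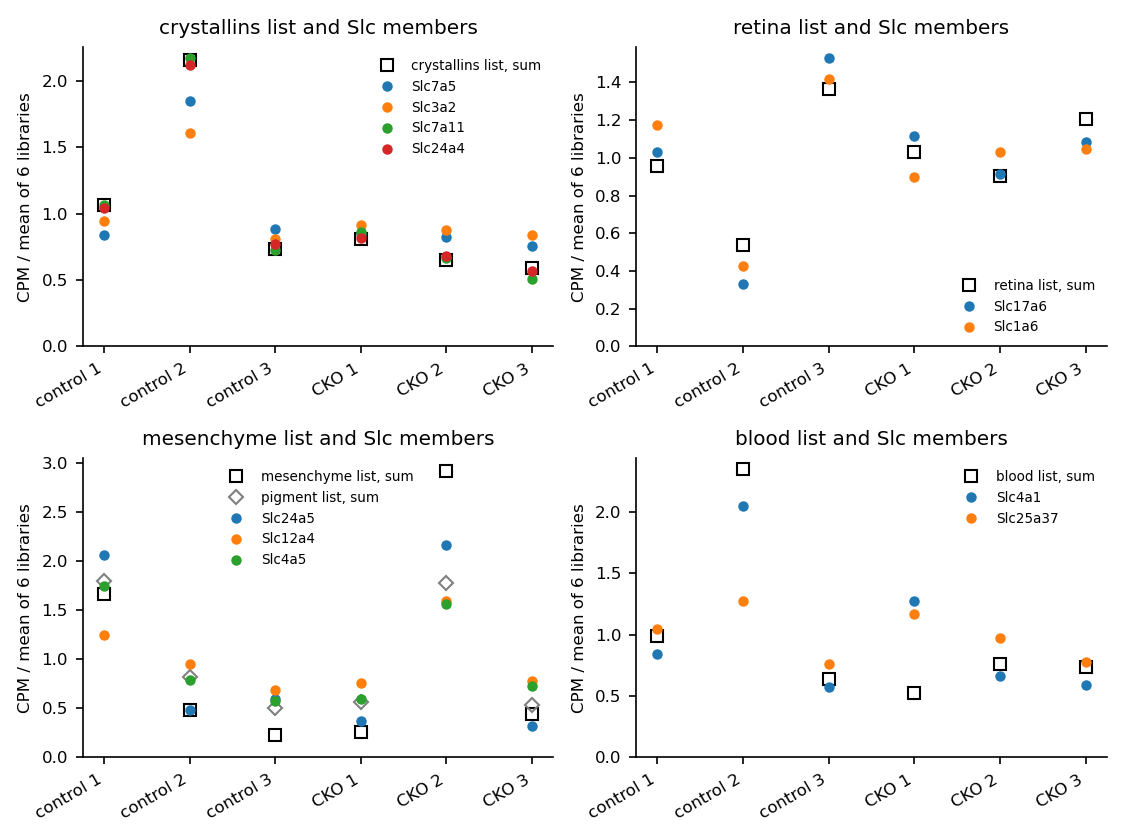
CPM of each library divided by the mean of all 6 libraries (y axis) for marker lists (open symbols, summed) and Slc members (filled points), by library (x axis). Control replicate 2 is high in crystallins and low in retina genes, and control replicate 1 and CKO replicate 2 are high in mesenchyme and pigment genes, while in CKO replicate 1 Slc4a1 lies well above the blood sum.

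The spread between pools was wider in control than in CKO, with a median SD of log2 CPM of 0.18 over the members in control and 0.11 in CKO, and 0.19 and 0.11 over all genes. Over pairs of pools, the median SD of the members was 0.11 in control without replicate 2, 0.21 without replicate 1 and 0.18 without replicate 3, and in CKO it was 0.08 to 0.09 for the 3 pairs. Most of the wider spread of control thus came with replicate 2. Control replicate 2 was the highest of the 6 libraries for 71 members (36.6%, against 31.6% of all genes) and the lowest for 55 (28.4%, against 31.6%). The members thus stood near all genes in this.

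The 24 of 24 transporters known from the lens summed to 2746, 3544 and 2670.5 CPM in control and 3043, 2826 and 2869 CPM in CKO, led by Slc2a1. In edgeR's quasi-likelihood test Slc2a1 alone among them had an unadjusted p under 0.05, beside 3.55% of all genes, and DESeq2 gave 2 at that limit, beside 3.94% of all genes. The number in edgeR was 0 without control replicate 1, CKO replicate 1 or CKO replicate 3 (2.44%, 2.51% and 2.11% of all genes). It was 2 without control replicate 2 or CKO replicate 2 (6.27% and 3.00% of all genes) and 3 without control replicate 3 (9.59% of all genes). Genes that the transporters work with were in the table for 29 of 30, led by Ldha, and summed to 4358, 5254 and 4171 CPM in control and 4348, 4213 and 4513 CPM in CKO. In edgeR's quasi-likelihood test 0 of these 29 passed an unadjusted p of 0.05, as in limma voom, while DESeq2 and edgeR's likelihood ratio test gave 2 each at that limit and 0 after adjustment. In the quasi-likelihood test the number was 1 without CKO replicate 1, 2 without control replicate 2 and 4 without control replicate 3, beside the shares of all genes just given. Of these, 3 were named after their values were seen. Atp1b3, a subunit of the sodium pump, was at 186, 262 and 159.97 CPM in control and 152, 149 and 159 CPM in CKO, and its groups were separate by a narrow gap. Gss, which encodes glutathione synthetase, was at 239.6, 489 and 170.3 CPM in control and 208, 164 and 148 CPM in CKO. Like Slc7a11 it was highest in control replicate 2, and its groups overlapped. Basigin, encoded by Bsg, the chaperone of Slc16a1 and Slc16a3, was at 278, 338 and 257 CPM in control and 282, 294 and 302 CPM in CKO.

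The members just inside the limit of 5 were Slc7a3, Slc26a6 and Slc24a5, with mean control values of 5.13, 5.29 and 5.29 CPM on total counts. Just outside were Slc25a47 and Slc44a5, each at 4.84 CPM, and Slc27a6 at 4.72 CPM.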

How the data were processed

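Each library came from one pool of E14.5 lenses. The authors aligned paired-end reads to mm10 with TopHat2 2.0.13, and the deposited values are raw fragment counts per RefSeq gene from HTSeq 0.6.1, for genes with a mean Cuffdiff 2.2.1 FPKM above 1 in any group. The study describes its libraries as strand-specific, but which strand option was set in counting is not stated. Libraries are numbered by their titles.

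Counts of the whole table were fitted in edgeR 4.0.16 (R 4.3.3) with TMM and a robust quasi-likelihood test over the genes that reached 10 counts in 3 or more libraries, and p-values were adjusted by Benjamini-Hochberg over all 12879 genes. DESeq2 1.42.0, limma 3.58.1 voom and edgeR's likelihood ratio test were alternatives. Tested on simulated data, DESeq2 made more false calls than its limit of 0.05 allows, and edgeR's quasi-likelihood test did not. The likelihood ratio test was not tried there. The simulated counts were drawn with dispersions that edgeR had estimated and without tissue differences between pools, so they do not rank the tools for these libraries. The lowest count of a member in any library was 29. Exon lengths came from GENCODE M21 (GRCm38), where all 194 members were matched by symbol, and promoters from RefSeq. Python 3.11.15, pandas 2.3.3 and matplotlib 3.10.9 served for tables and plots.

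Named members are the 10 highest per kb, the 10 lowest and 10 highest fold changes without overlap, calls of edgeR or DESeq2 (Slc46a3), known lens transporters, members at the limit, the 5 with the largest control spread, and markers of other cells. The members and lists were chosen with earlier results of these data known.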

Additional observations from a re-analysis of the deposited data

How the results depend on the processing

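Of 28 named members, the log2 fold change was recomputed under 16 alternatives, and 447 of 448 values kept their direction. The exception was Slc3a2, at 0.0113 without control replicate 2, where the pool with its highest count was gone, and -0.541 at the other end of the single-library omissions. Slc46a3 passed an adjusted p of 0.05 with DESeq2 and with the likelihood ratio test, which gave 1 call among the members each, and no member did under any other alternative, including each library left out (0 calls). With each library left out, 2 to 18 members were lower (1.03% to 9.28%, against 1.15% to 5.98% of all genes) and 1 to 8 higher (0.515% to 4.12%, against 0.940% to 3.80%) at an unadjusted p under 0.05, and the member median ran from -0.0388 to 0.0129.

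The replicate number was also entered as a replicate block, which gave 0 calls, 6 members lower and 4 higher at an unadjusted p under 0.05 (3.09% and 2.06%, against 2.63% and 1.37% of all genes), and a median of -0.01. Deviations of same-numbered libraries correlated at -0.49, 0.09 and 0.44. Control replicate 1 correlated best with CKO replicate 2 (0.56), and these are the mesenchyme-rich pools. Because other tissue in the pools enters these values, they cannot show whether same-numbered pools shared a litter or batch. The main test did not pair the pools. Other limits on the level gave 174 to 216 members, with medians of -0.02.

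The alternatives in this paragraph were chosen after seeing the data. Library sizes without TMM gave 9 members higher at an unadjusted p under 0.05 (4.64%, against 3.32% of all genes) and a median of 0.0761, and CPM on total counts gave 4 lower and 24 higher without overlap, beside 292 and 1408 of all genes (2.27% and 10.9%). Without the mesenchyme-rich pools (control replicate 1 and CKO replicate 2), 1 member was lower and 1 higher at an unadjusted p under 0.05 (0.515% each, against 0.905% and 0.445%), and 28 were lower and 23 higher without overlap (14.4% and 11.9%, against 12.1% and 9.57% of all genes). With each library left out, groups without overlap numbered 11 to 28 lower (5.67% to 14.4%, against 7.26% to 14.1% of all genes) and 17 to 29 higher (8.76% to 14.9%, against 6.04% to 13.7%). The causes were not tested.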

Other observations

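The 22 Slc rows below the limit had mean control levels of 1.36 to 4.84 CPM on total counts. All 22 were tested in edgeR's quasi-likelihood fit, 0 had an unadjusted p-value under 0.05, as in DESeq2, limma voom and the likelihood ratio test, and 2 had groups without overlap, the zinc carrier Slc39a2 and the mitochondrial carrier Slc25a35, both higher in CKO, beside 8.36% of all genes without overlap. At an unadjusted p under 0.05 there were 2 with library sizes without TMM, and 1 each without control replicate 2, control replicate 3 or CKO replicate 3. Slc26a7, an anion exchanger, was at 3.80, 0.28 and 0.22 CPM in control replicates 1 to 3 and 0.19, 12.9 and 0.78 CPM in CKO, so that nearly all of its counts came from the 2 mesenchyme-rich pools. Slc11a1, a divalent metal carrier of macrophages, was at 6.15, 3.24 and 2.12 CPM in control and 2.204, 7.43 and 1.46 CPM in CKO, and was also highest in those pools. The 4 Slco rows, organic anion carriers of a related naming scheme, had overlapping groups. The highest of them, Slco5a1, was at 37.1, 21.4 and 54.5 CPM in control and 38.5, 34.1 and 39.8 CPM in CKO, lowest in control replicate 2 and highest in control replicate 3, as the retina sums were. These rows were named after their values were seen.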
